A study of Mus musculus with 14 samples.

Results

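Klf2, Klf4 and Klf5 are Krüppel-like factors, zinc finger proteins that bind GC-rich and CACCC sequences in DNA. They were described here through all probes that the array annotation gives to their symbols: 1 probe for Klf2, 1 for Klf5 and 3 for Klf4, so 3 genes of 16590 symbols and 5 probes of 25697. Mouse embryonic stem cells (ESCs) depend on these factors for self-renewal. Each binds regulatory regions of Nanog, Esrrb and other genes of the naive network, and loss of all 3 together, but not of any of them alone, is known to end self-renewal. LIF is known to raise Klf4 through STAT3, and ERK is known to mark Klf2 protein for breakdown, which a MEK inhibitor prevents. Klf2 and Klf4 are also among the factors that can return primed epiblast cells to the naive state.

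Expression was measured on 14 Illumina mouse beadchips, 2 for each of 7 groups, and every sample is labelled strain C57/B6. A double-reporter ESC line (O4-DE-GFP/O4-PE-RFP) carried GFP under the distal and RFP under the proximal enhancer of Oct4, whose gene symbol is Pou5f1. It supplied GFP+RFP+ and GFP+RFP- cells from serum with LIF, GFP+RFP- cells from N2B27 with LIF and 2i (3 µM CHIR99021, which inhibits GSK3, and 1 µM PD0325901, which inhibits MEK), and GFP-RFP+ epiblast-like cells (EpiLCs). These are called RFP-positive serum ESCs, RFP-negative serum ESCs, 2i ESCs and EpiLCs below. A single-reporter ESC line (O4-DE-GFP) in serum with LIF, epiblast stem cells (EpiSCs) and mouse embryonic fibroblasts (MEFs) made up the rest, and their labels name no gate, although the design text speaks of sorted cells for the series. The EpiSCs came from epiblasts of day 6.5 by one label, and the other label reads 6.6. The labels do not say whether either ESC line is 1 clone or whether the 2 samples of a group were separate cultures, so each p-value covers the spread between arrays alone, and part or all of that spread may be technical.

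The arrays fitted their labels on markers, with reservations for EpiSCs and single-reporter ESCs. All 5 pluripotent markers were detected in every ESC, EpiLC and EpiSC group, and 4 of 5 (Pou5f1, Sox2, Utf1 and Lin28a) were undetected in MEFs, where 12 of 12 fibroblast and feeder markers were detected on both arrays. Detection of that list alone did not set MEFs apart, since 10 of the 12 were detected on both arrays of each serum ESC group. Of 5 extraembryonic endoderm markers, 4 were detected on both EpiSC arrays, against 3 in single-reporter ESCs, 1 in EpiLCs and 2 in each other group. Of 6 markers of the epiblast after implantation on the array, Fgf5, Fgf8 and Foxa2 were undetected in 2i ESCs, while Otx2, Pou3f1 and Dnmt3b were detected there on both arrays. Both double-reporter serum groups and EpiLCs had 5 of the 6 detected, without Foxa2. Their summed levels were close, at 15.23 to 15.35 log2 in serum and 15.42 to 15.43 in EpiLCs, with Dnmt3b the largest part. Neither detection nor the sum thus set serum ESCs clearly apart from EpiLCs. By single genes, 3 of the 6 were higher in EpiLCs than in RFP-positive serum ESCs and none lower, where 28.3% of all genes were higher. Fgf5 was at 11.37 log2 against 7.66 and Fgf8 at 9.18 against 6.01, while Otx2 was at 10.40 against 10.74. Partner arrays correlated at 0.996 to 0.998 over probes, except the EpiSC arrays at 0.984, whose median scanner signals of 313.5 and 316.8 lay above the 142.6 to 209.4 of the other 12. The summed fibroblast and feeder level was 11.79 log2 on EpiSC array 1 and 15.51 on array 2, against 12.10 to 12.13 in EpiLCs. Acta2 made up most of the array 2 sum, at 15.13 log2 there against 10.19 on array 1. Of the 12 markers, 6 were detected on both EpiSC arrays and 3 (Col1a2, Col3a1 and Postn) on neither. The summed naive level was 11.61 on EpiSC array 1 and 8.89 on array 2. In MEFs the fibroblast sum was 17.99 to 18.03 and in single-reporter ESCs 16.69 to 16.75, against 14.41 to 14.50 in the double-reporter serum ESCs and 12.84 to 12.85 in 2i ESCs. In bulk samples like these, fewer cells of a type and less RNA per cell cannot be told apart.

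The genes lie at chr8:72319062-72321654 (Klf2), chr4:55527137-55532475 (Klf4) and chr14:99298691-99313412 (Klf5) in build GRCm38.p6 of RefSeq. The 250 bases upstream of the annotated start are printed for Klf2 (chr8:72318812-72319061, plus strand) and Klf4 (chr4:55532476-55532725, minus strand), because GC boxes and CACCC boxes are the sequences that Krüppel-like and SP factors themselves bind. RefSeq promoters matched 2 of the 3 members. Each runs 5′ to 3′ towards the start site. Capitals mark GGGCGG (the GC box), CACCC and CTANNNNTAG (a MEF2-like motif), on either strand.
Klf2: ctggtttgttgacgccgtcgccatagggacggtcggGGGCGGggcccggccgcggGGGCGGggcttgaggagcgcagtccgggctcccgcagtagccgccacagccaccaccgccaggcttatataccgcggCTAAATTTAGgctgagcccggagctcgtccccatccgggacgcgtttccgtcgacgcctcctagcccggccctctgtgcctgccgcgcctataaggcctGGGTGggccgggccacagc
Klf4: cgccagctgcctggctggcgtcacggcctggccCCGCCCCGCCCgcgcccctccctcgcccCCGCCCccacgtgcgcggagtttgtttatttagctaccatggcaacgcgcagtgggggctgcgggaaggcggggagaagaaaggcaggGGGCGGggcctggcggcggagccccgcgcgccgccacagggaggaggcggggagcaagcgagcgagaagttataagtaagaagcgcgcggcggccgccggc
In the window searched, 250 bases before to 50 after the start, Klf2 had 2 GC boxes, 214 and 195 bases before the start, and Klf4 had 4, at 217, 212, 189 and 101 bases, of which the first and second overlap by 1 base. Of 32851 such promoters in the RefSeq table, 35.7% held at least 1 GC box, 19.5% at least 2 and 5.49% at least 4. Klf2 held 1 CACCC at 19 bases before the start and 1 CTANNNNTAG at 118 bases, and Klf4 held neither, against 57.5% and 3.69% of all promoters. Klf4 held 1 CACGTG (the E box) at 182 bases, and Klf2 none, against 7.15% of all promoters. TTCNNNGAA, a STAT-like motif found in 8.3% of promoters, was in neither window. The windows were 69.3% (Klf2) and 74.3% (Klf4) G and C, against a median of 52.7% over the table. A match describes letters, and no binding was measured here.

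At a detection p under 0.05, all 5 probes were detected on both arrays of every group. On EpiSC array 1, 2 of the Klf4 probes were near the floor. ILMN_1221264 was at 6.06 log2 (detection p 0.0163) and ILMN_1241903 at 6.37 log2 (detection p 0.00627). Levels are log2 signals after background correction and quantile normalization (neqc), and levels of different probes are not compared with each other. A gene was called where limma, fitted over all 14 arrays, gave a Benjamini-Hochberg adjusted p under 0.05 over the 10481 genes tested. Adjusted p-values of genes are from that model. Those given by Klf4 probe are from the same model fitted over 14420 detected probes, and those without an array are from the gene fit on the remaining arrays. For Klf4, the probe with the highest mean, ILMN_2999439, represents the gene, and probes ILMN_1241903 and ILMN_1221264 are given beside it.

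Klf2, with probe ILMN_2604029, was high in all ESCs and low elsewhere. It was at 14.08 and 14.21 on the single-reporter ESC arrays, 13.79 on both 2i arrays, 13.33 and 13.27 in RFP-negative serum ESCs and 13.29 and 13.19 in RFP-positive serum ESCs. It was at 9.89 and 9.73 in MEFs, 9.75 and 9.60 in EpiSCs and 9.61 and 9.53 in EpiLCs. The 8 ESC arrays thus lay above the 6 others, and all 6 of those arrays lay between 9.53 and 9.89. How many of all genes part the arrays in this way was not counted. From the lowest to the highest group mean the range was 4.57 log2, a 23.7-fold difference, while partner arrays differed by at most 0.17 log2. In the order of the group means (single-reporter, 2i, RFP-negative, RFP-positive, MEF, EpiSC, EpiLC) the neighbours not called were the serum gates (0.06 log2, 95% interval −0.14 to 0.26), MEFs and EpiSCs (0.13 log2, −0.07 to 0.33) and EpiSCs and EpiLCs (0.10 log2, −0.10 to 0.30). Single-reporter ESCs exceeded 2i ESCs by 0.36 log2 (adjusted p 0.0064), a pair of groups in which 60% of tested genes were called. Without single-reporter array 2 the change, 2i minus single-reporter, was −0.29 log2 with an adjusted p of 0.052.

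Klf5, with probe ILMN_1253387, was highest in the double-reporter serum ESCs and lowest, among the ESC groups, in 2i ESCs. It was at 13.92 and 13.90 in RFP-positive serum ESCs, 13.82 and 13.77 in RFP-negative serum ESCs, 13.40 and 13.43 in single-reporter ESCs and 13.15 and 13.05 in 2i ESCs. It was at 11.10 and 11.09 in EpiLCs, 10.21 and 10.19 in MEFs and 10.20 and 10.12 in EpiSCs. MEFs and EpiSCs were the only groups whose arrays overlapped, and the share of all genes with as little overlap was not counted. The range was 3.75 log2 (13.5-fold), with partner arrays at most 0.11 log2 apart. The neighbours not called were the serum gates (0.12 log2, −0.04 to 0.27) and MEFs and EpiSCs (0.04 log2, −0.11 to 0.20). RFP-negative serum ESCs exceeded single-reporter ESCs by 0.38 log2 (adjusted p 0.00091, in a pair with 58.5% of genes called) and these exceeded 2i ESCs by 0.31 log2 (adjusted p 0.0027).

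Klf4, by its main probe, was highest in 2i ESCs and lowest in EpiSCs, and its level in MEFs lay among those of serum ESCs. It was at 12.21 and 12.34 in 2i ESCs, 11.34 and 11.36 in RFP-negative serum ESCs, 11.33 on both arrays of RFP-positive serum ESCs, 11.01 on both MEF arrays and 10.56 and 10.66 in single-reporter ESCs. It was at 9.55 and 9.59 in EpiLCs and at 7.60 and 8.51 in EpiSCs. The EpiSC arrays were 0.92 log2 apart, whereas partner arrays of the other 6 groups were at most 0.13 log2 apart, and that gap enters the standard error of every Klf4 comparison. The array with the lower Klf4 level, EpiSC array 1, is the one with the higher naive sum and the lower fibroblast sum given above. The neighbours not called were the serum gates (0.02 log2, −0.48 to 0.52), RFP-positive serum ESCs and MEFs (0.33 log2, −0.17 to 0.82, in a pair with 80.5% of genes called, and called at an adjusted p of 0.0011 without either EpiSC array) and MEFs and single-reporter ESCs (0.39 log2, −0.10 to 0.89). Single-reporter ESCs exceeded EpiLCs by 1.04 log2 (adjusted p 0.0021, in a pair with 67.2% of genes called).

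**Figure D1:**
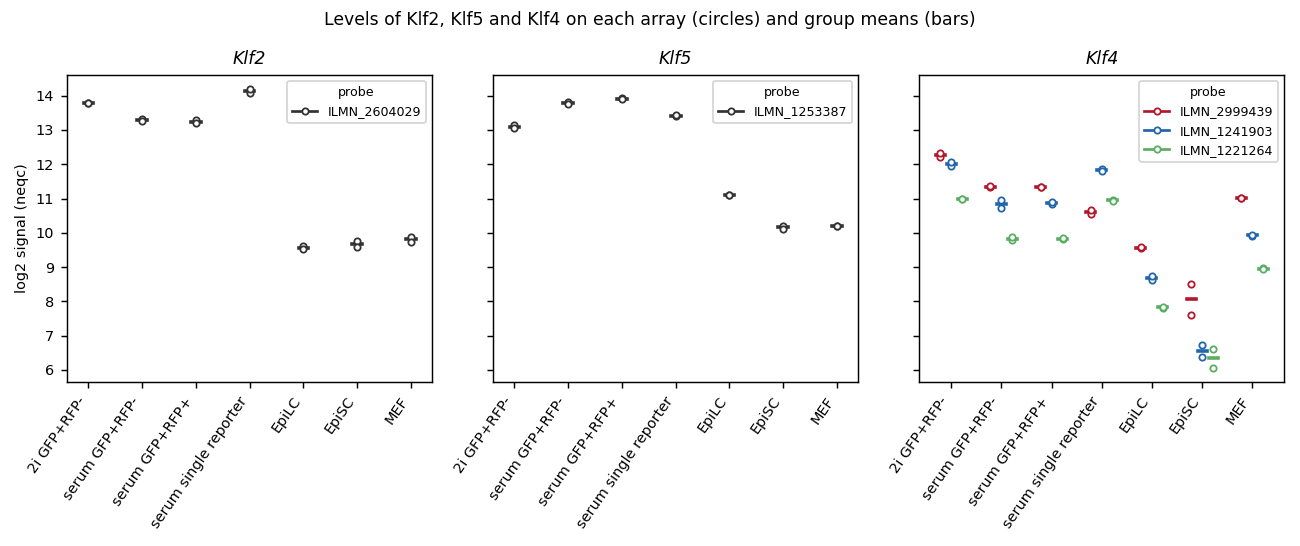
Log2 signal (neqc) of Klf2, Klf5 and Klf4 in the 7 groups, with a circle for each array and a bar for each mean of 2 arrays. Klf2 and Klf5 fall between the 4 ESC groups and the EpiLC, EpiSC and MEF groups, and the 3 Klf4 probes share a broad order except in single-reporter ESCs, where ILMN_2999439 is below and the others are above their serum levels.

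All 3 Klf4 probes gave the order 2i ESCs, double-reporter serum ESCs, EpiLCs and EpiSCs from high to low, and they parted in single-reporter ESCs. From EpiLCs to EpiSCs the fall was 2.13 log2 on ILMN_1241903, 1.49 log2 on ILMN_1221264 and 1.52 log2 on the main probe. The reason for the difference in size was not tested. ILMN_1241903 was at 11.95 and 12.06 in 2i ESCs, 10.73 and 10.97 in RFP-negative serum ESCs, 10.84 and 10.89 in RFP-positive serum ESCs and 11.86 and 11.81 in single-reporter ESCs. It was at 9.91 and 9.95 in MEFs, 8.61 and 8.75 in EpiLCs and 6.37 and 6.74 in EpiSCs. ILMN_1221264 was at 11.00 on both 2i arrays, 9.78 and 9.88 in RFP-negative serum ESCs, 9.82 and 9.84 in RFP-positive serum ESCs and 10.97 and 10.93 in single-reporter ESCs, and at 8.96 and 8.93 in MEFs, 7.82 and 7.84 in EpiLCs and 6.06 and 6.62 in EpiSCs. By both of these probes single-reporter ESCs stood near 2i ESCs, and by the main probe they stood below every other ESC group. All 3 probes put EpiSCs lowest, EpiLCs next and 2i ESCs highest. Over 14 arrays, as a description, ILMN_1241903 and ILMN_1221264 correlated at 1.00 with each other and at 0.91 and 0.89 with the main probe, and at 0.99 with it over the 12 arrays without single-reporter ESCs. The arrays share their groups, so these values follow the group means.

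In 2i ESCs, against serum ESCs of the same GFP+RFP- gate, Klf2 and Klf4 were higher and Klf5 was lower. This comparison puts the inhibitor medium beside serum within one reporter state. Klf2 rose by 0.49 log2 (SE 0.09, adjusted p 0.0019, n = 2 arrays per group), a 1.4-fold change. Klf4 rose by 0.93 log2 (SE 0.22, adjusted p 0.0083), 1.9-fold, and by 1.15 and 1.17 log2 on ILMN_1241903 and ILMN_1221264 (adjusted p 8.2e-05 and 0.00018). Klf5 fell by 0.69 log2 (SE 0.07, adjusted p 4.2e-05), a level 1.62-fold lower. All 3 were called, in a comparison in which 39.7% of all tested genes were called. Of the tested genes, 69.7% changed less than Klf2, 87.8% less than Klf4 and 81.2% less than Klf5. Without 2i array 2, Klf4 was at 0.86 log2 with an adjusted p of 0.052. The fibroblast and feeder sum was lower in 2i ESCs (12.84 to 12.85 log2) than in RFP-negative serum ESCs (14.50 on both arrays), and Klf4 is expressed in MEFs. Its 12 markers did not run one way: 4 were lower in 2i, 2 higher and 6 not called, beside 20% and 19.7% of all genes lower and higher. Acta2 fell by 3.62 log2, while Col3a1 rose by 2.81 log2 and Lum by 0.93 log2. The part of that sum in the result was not tested. Serum against N2B27 and inhibitors against none change together here, so their shares cannot be told apart.

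Between the serum gates, RFP-positive against RFP-negative, none of the members was called, in a comparison with 0.124% of genes called. Klf2 differed by −0.06 log2 (95% interval −0.26 to 0.14), Klf4 by −0.02 log2 (−0.52 to 0.48) and Klf5 by 0.12 log2 (−0.04 to 0.27). For Klf2 the arrays of the gates overlapped. For Klf5 both RFP-positive arrays lay above both RFP-negative ones, a split whose share over all genes was not counted. Each interval ended short of the size of that member's change in 2i.

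In EpiLCs all 3 members were lower than in 2i ESCs. Klf2 fell by 4.21 log2 (SE 0.09, adjusted p 1.1e-09), to a level 18.6-fold lower. Klf4 fell by 2.70 log2 (SE 0.22, adjusted p 4.5e-06), 6.52-fold, and Klf5 by 2.01 log2 (SE 0.07, adjusted p 1.2e-08), 4.02-fold. Of all tested genes 55.1% were called here, and 99.2%, 96.3% and 92.8% of them changed less than Klf2, Klf4 and Klf5. Against RFP-positive serum ESCs, which share the RFP reporter with EpiLCs, the order of the sizes was different: Klf2 fell by 3.67 log2 (SE 0.09, adjusted p 3e-09), Klf5 by 2.82 log2 (SE 0.07, adjusted p 3e-09) and Klf4 by 1.76 log2 (SE 0.22, adjusted p 1e-04), with 55% of genes called. The 2 comparisons share the EpiLC arrays. The other Klf4 probes gave falls of 3.32 and 3.17 log2 against 2i ESCs and of 2.18 and 2.00 log2 against RFP-positive serum ESCs.

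EpiSCs had lower Klf4 and Klf5 than EpiLCs, whereas Klf2 was not called between these primed states. Klf4 fell by 1.52 log2 on its main probe (SE 0.22, adjusted p 0.00029, 2.86-fold) and Klf5 by 0.93 log2 (SE 0.07, adjusted p 3.6e-06, 1.91-fold). On ILMN_1241903 and ILMN_1221264 the Klf4 fall was 2.13 and 1.49 log2. Klf2 differed by 0.10 log2 (SE 0.09, 95% interval −0.10 to 0.30, adjusted p 0.36), so 2 of 3 members were called where 56.4% of genes were. The Klf4 change was −1.06 log2 without EpiSC array 1 and −1.98 log2 without array 2 (SE 0.08 for both), a shift of over 1.5 times that kept the call. The Klf5 change was −0.98 and −0.89 log2, and that of Klf2 0.03 and 0.18 log2, without array 1 and array 2. The fibroblast and feeder sum, which differed between these EpiSC arrays by more than any other marker sum, was on opposite sides of the EpiLC values on array 1 and array 2, and its part in the result was not tested. Against 2i ESCs, Klf4 fell by 4.22 log2 in EpiSCs (SE 0.22, adjusted p 1.4e-07, 18.7-fold), Klf2 by 4.11 log2 (SE 0.09, adjusted p 5.5e-10, 17.3-fold) and Klf5 by 2.94 log2 (SE 0.07, adjusted p 7.7e-10, 7.68-fold), with 66.3% of genes called. Without EpiSC array 1 or array 2 the main-probe Klf4 value was −3.76 or −4.68 log2. By ILMN_1241903 and ILMN_1221264 Klf4 fell by 5.45 and 4.66 log2 against 2i ESCs (43.6-fold and 25.4-fold), so the size depended on the probe.

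**Figure D2:**
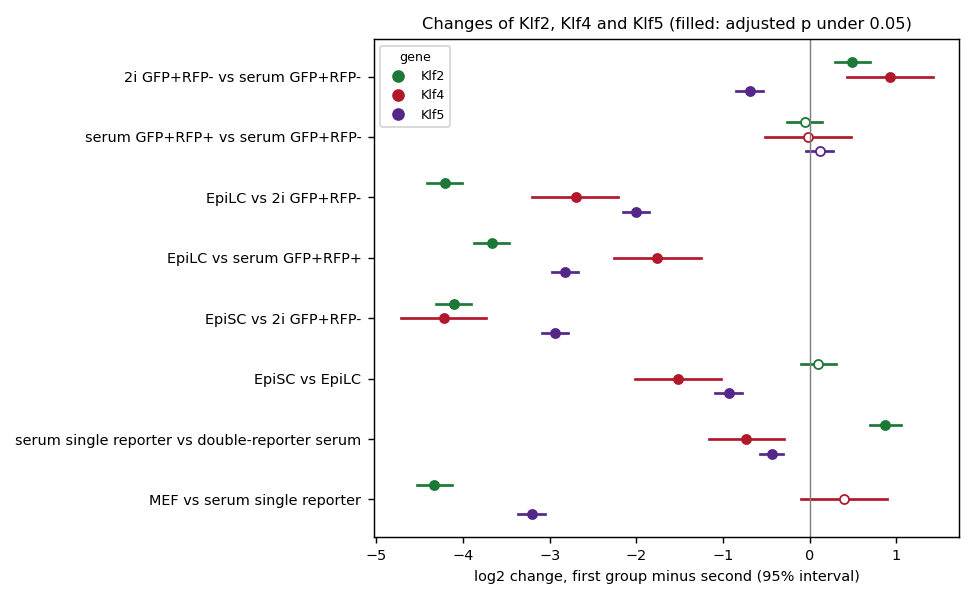
Log2 change of Klf2, Klf4 (main probe) and Klf5 in 8 comparisons, first group minus second, with 95% intervals from limma and filled points where the adjusted p was under 0.05. All 3 fall in EpiLCs and EpiSCs against 2i ESCs, Klf5 alone falls in 2i, and Klf4 on this probe is not lower in MEFs than in single-reporter ESCs.

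Single-reporter serum ESCs differed from double-reporter serum ESCs (the mean of both gates) in all 3 members, and for Klf4 the direction depended on the probe. Klf2 rose by 0.87 log2 (SE 0.08, adjusted p 6.2e-06, 1.83-fold) and Klf5 fell by 0.44 log2 (SE 0.06, adjusted p 0.00011, 1.36-fold). Klf4 fell by 0.73 log2 on its main probe (SE 0.19, adjusted p 0.0077), but rose by 0.98 log2 on ILMN_1241903 (SE 0.11, adjusted p 2.9e-05) and by 1.12 log2 on ILMN_1221264 (SE 0.13, adjusted p 2.9e-05). Of all genes 63.1% were called in this comparison. Without single-reporter array 1 the main probe's value was −0.68 log2 with an adjusted p of 0.057. Measured as the other probe minus the main probe, single-reporter arrays lay at 0.26 to 0.41 log2 for ILMN_1221264, against −1.56 to −1.48 on the 4 double-reporter serum arrays, a shift of 1.85 log2. For ILMN_1241903 they lay at 1.15 to 1.30 against −0.61 to −0.40, a shift of 1.70 log2. The groups did not overlap, and the exact two-sided permutation p of 0.133 for each is the smallest that 2 against 4 arrays allow. The direction of Klf4 between these lines was thus not settled, and the reason for the disagreement was not tested. Line, reporter and gate differ together between these groups and cannot be told apart, and the fibroblast and feeder sum was 16.69 to 16.75 log2 in single-reporter ESCs against 14.41 to 14.50, with its part in the result not tested.

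MEFs had low Klf2 and Klf5, and Klf4 at a level above that of EpiLCs and EpiSCs. Against single-reporter ESCs, the line cultured in serum without a gate in its label, Klf2 fell by 4.33 log2 (SE 0.09, adjusted p 2.2e-10, 20.2-fold) and Klf5 by 3.21 log2 (SE 0.07, adjusted p 2.5e-10, 9.27-fold), where 78.3% of genes were called. Klf4 on its main probe was at 0.39 log2 (SE 0.22, 95% interval −0.10 to 0.89, adjusted p 0.13), and it was called at the same 0.39 log2 without EpiSC array 1, EpiSC array 2 or both (SE 0.06, adjusted p 0.00032 for each). On ILMN_1241903 and ILMN_1221264 Klf4 fell by 1.90 and 2.01 log2 (adjusted p 2.8e-07 and 5.5e-07), so this comparison too reversed with the probe. MEF arrays set the other probes 0.59 and 0.55 log2 lower relative to the main one than the 4 double-reporter serum arrays did (exact two-sided permutation p 0.133 for each, again the smallest possible). In the fit over probes, RFP-negative serum ESCs differed from MEFs by 0.35 log2 on the main probe (adjusted p 0.17; in the fit over genes without either EpiSC array, 0.00073) and by 0.92 and 0.89 log2 on ILMN_1241903 and ILMN_1221264 (adjusted p 6.4e-05 and 0.00024).

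By all 3 probes Klf4 was higher in MEFs than in both primed groups. In the fit over probes EpiLCs lay below MEFs with a change of −1.43 log2 on the main probe (adjusted p 0.00017) and of −1.25 and −1.11 log2 on ILMN_1241903 and ILMN_1221264, all called. EpiSCs lay below MEFs with changes of −2.95, −3.38 and −2.61 log2 on the main probe, ILMN_1241903 and ILMN_1221264, all called. Klf2 and Klf5 did otherwise: Klf2 changed by −0.24 log2 in EpiLCs against MEFs (adjusted p 0.034) and Klf5 was higher by 0.89 log2 (adjusted p 9.4e-07), so all 3 members were called between EpiLCs and MEFs, where 78.2% of genes were. The Klf2 call ended without EpiLC array 1, EpiLC array 2 or MEF array 1, with adjusted p-values of 0.055, 0.16 and 0.22. Between EpiSCs and MEFs Klf4 alone of the 3 was called, where 76.7% of genes were, with Klf2 at −0.13 log2 (adjusted p 0.2) and Klf5 at −0.04 log2 (adjusted p 0.58). Over the 21 pairs of groups, Klf2 was called in 18, Klf4 (main probe) in 17 and Klf5 in 19, 54 of 63 in all. The share of all genes called ran from 0.124%, between the serum gates, to 80.5%, between RFP-positive serum ESCs and MEFs. No share over all genes and pairs together was computed, so the 54 of 63 has no background beside it.

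**Figure D3:**
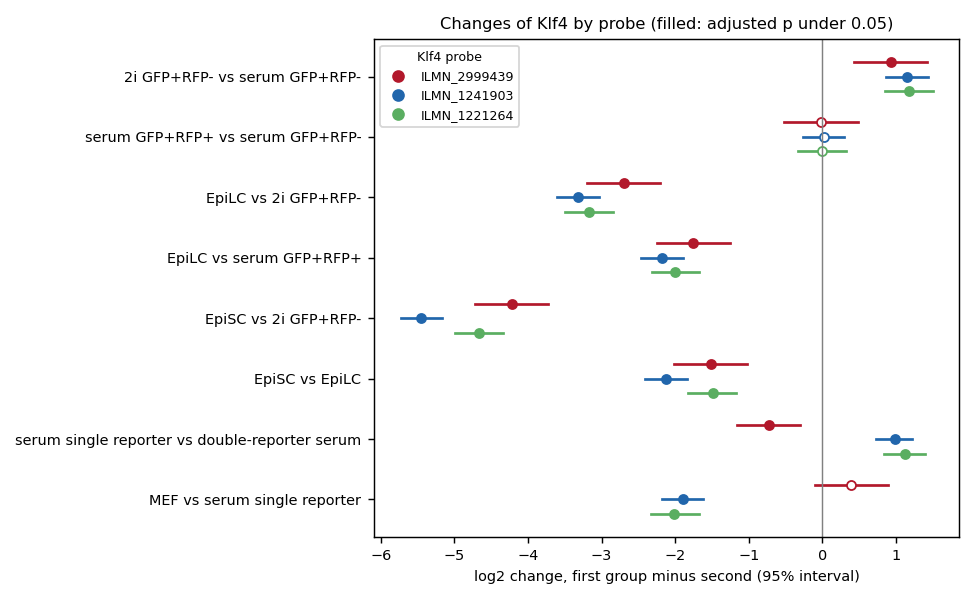
Log2 change of Klf4 by each of its 3 probes in 8 comparisons, first group minus second, with 95% intervals and filled points where the adjusted p was under 0.05. The probes give the same direction and call for 2i, EpiLC and EpiSC, and opposite directions in both comparisons with single-reporter ESCs.

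As a description over 7 group means, Klf2 and Klf5 correlated at 0.94, Klf2 and Klf4 at 0.70 and Klf4 and Klf5 at 0.67. Over the 6 groups without MEFs the values were 0.93, 0.85 and 0.88. With ILMN_1221264 or ILMN_1241903 for Klf4, the correlation with Klf2 over 7 groups was 0.89 or 0.86 and that with Klf5 was 0.80 or 0.79. The points share the normalization and the split between ESCs and other cells.

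The genes most like each member by Pearson correlation over the 7 group means were sought among 8371 candidates whose range was at least 1 log2. For Klf2 they were Tbc1d13 (0.996), Nr5a2 (0.995), the keratin gene Krt42 (0.995), Msc (0.993) and Cobl (0.992). Nr5a2, an orphan nuclear receptor that can act in place of Oct4 in reprogramming, was at 11.83 ± 0.04 (SD, n = 2) in single-reporter ESCs and 11.24 ± 0.09 in 2i ESCs and was undetected in EpiLCs and MEFs. For Klf5 they were the folate receptor gene Folr1 (0.999), Dgcr8 (0.995), a partner of Drosha in microRNA processing, Frrs1 and Gid8 (0.993 each) and Rasip1 (0.992). For Klf4 by its main probe they were Kank2 (0.987), Stoml1 and Apmap (0.982 each), Farsa (0.973) and Arpc4 (0.968). None of these 5 was among the 5 most like either of the other Klf4 probes, so the Klf4 neighbours rest on the choice of probe.

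The other Krüppel-like factors did not share one pattern. The counts of listed genes from here on stand beside shares over all tested genes: 19.7% were higher and 20% lower in 2i against RFP-negative serum ESCs, 27.5% and 27.6% in EpiLCs against 2i ESCs, 28.3% and 26.7% in EpiLCs against RFP-positive serum ESCs, 32.4% and 33.9% in EpiSCs against 2i ESCs, and 27.9% and 28.5% in EpiSCs against EpiLCs. They were 31.3% and 31.8% in single-reporter against double-reporter serum ESCs and 39.6% and 38.7% in MEFs against single-reporter ESCs. Of 14 listed, 13 were named on the array and 11 were tested, and Klf14 was not found by name. In 2i ESCs against RFP-negative serum ESCs, 4 were higher, 3 lower and 4 not called, with a median of −0.01 log2 beside 0.01 over all genes. Klf8, a repressor with links to cell migration, rose by 1.20 log2 (SE 0.14, adjusted p 0.00011; detected on 1 of 2 serum arrays), and Klf12, a repressor of AP-2 alpha, fell by 1.14 log2 (SE 0.14, adjusted p 0.00014; detected on 1 of 2 arrays in 2i). Klf13 rose by 0.75 log2, Klf16 rose by 0.43 log2, Klf7 fell by 0.61 log2 and Klf9 fell by 0.45 log2. Klf3 rose by 0.52 log2 (adjusted p 0.031), a call that ended without any of the 4 arrays compared. None of the 11 was called between the serum gates.

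Between EpiLCs and 2i ESCs 3 relatives were higher in EpiLCs, 4 lower and 4 not called, with a median of −0.16 log2 beside −0.01 over all genes. Klf6 rose by 1.73 log2 (SE 0.17, adjusted p 1.5e-05) and Klf7, known for its role in neurons, by 1.75 log2 (SE 0.12, adjusted p 9.7e-07), opposite to the members. Klf8, undetected in EpiLCs, was at least 2.19-fold lower, and Klf3, a repressor that recruits CtBP, fell by 1.05 log2 (SE 0.16, adjusted p 0.00039). Klf9 and Klf16 fell by 0.54 and 0.72 log2. Klf12 was at 0.37 log2 with a call that ended without EpiLC array 1 or 2, 2i array 1 or either RFP-negative serum array. In EpiSCs against 2i ESCs 2 were higher, 6 lower and 3 not called (median −0.51 beside −0.01 log2). Klf10, a target of TGF-beta, rose there by 1.38 log2 (SE 0.30, adjusted p 0.0027; detected on 1 of 2 arrays in 2i) and Klf7 by 1.36 log2, while Klf6 was at 0.40 log2 (adjusted p 0.059).

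Between EpiSCs and EpiLCs 1 relative was higher, 5 were lower and 5 were not called (median −0.28 beside 0 log2). Klf6 fell by 1.33 log2 (SE 0.17, adjusted p 0.00012) and Klf10, detected on 1 of 2 EpiLC arrays, rose by 1.54 log2 (SE 0.30, adjusted p 0.0019). The calls of Klf7 and Klf16 ended without EpiLC array 1, and that of Klf7 also without EpiLC array 2 or EpiSC array 1. In single-reporter against double-reporter serum ESCs 3 were higher, 4 lower and 4 not called (median −0.28 beside 0 log2). The call of Klf13 ended without any 1 of the 12 arrays outside EpiSCs, and that of Klf10 without single-reporter array 2. The Klf1 call ended without single-reporter array 1, RFP-positive array 2 or RFP-negative array 1. In MEFs against single-reporter ESCs 5 were higher, 4 lower and 2 not called (median 0.13 beside 0 log2). Klf3 rose there by 3.04 log2 (SE 0.16, adjusted p 7.8e-08), Klf6 by 1.66 log2 and Klf7 by 1.20 log2, whereas Klf16 fell by 1.52 log2. Klf10, Klf13 and Klf15 each lost the call without any 1 of 3 arrays, among them MEF array 2 and single-reporter array 2.

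**Figure D4:**
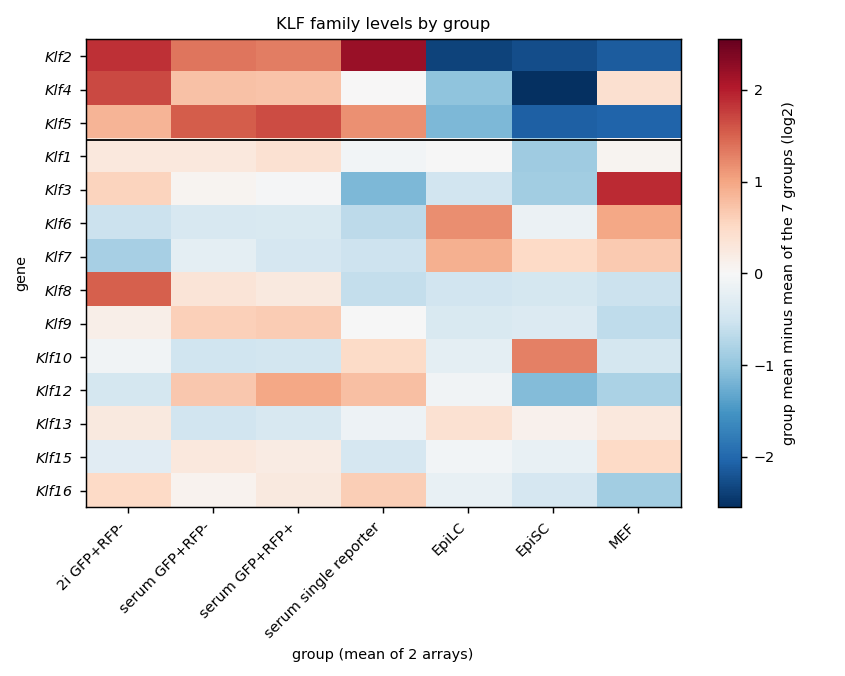
Group mean minus the mean of the 7 group means (log2 colour scale) for the 3 members, above the line, and the 11 other Krüppel-like factors tested, with 2 arrays per group. Klf2 and Klf5 are above their mean in all 4 ESC groups and below it in EpiLCs, EpiSCs and MEFs, and Klf6 and Klf7 are above their mean in EpiLCs and MEFs.

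SP factors bind the same GC boxes. Of 9 listed, 7 were on the array by name and 4 were tested (Sp1, Sp5, Sp6 and Sp8). In EpiLCs against 2i ESCs, Sp1, a general activator, fell by 0.96 log2 (SE 0.13, adjusted p 0.00015) and Sp5, a Wnt target, fell by 1.69 log2 (SE 0.29, adjusted p 0.0008), while Sp6 was at −0.17 log2 and not called. Sp8 was at 0.96 log2 there, with a call that ended without 2i array 1 or EpiLC array 1. Sp5 was at least 16.5-fold lower in MEFs than in single-reporter ESCs, being undetected in MEFs.

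The next list held genes of the naive network and genes known as targets of Krüppel-like factors in mouse ESCs. Those tested were lower in EpiLCs than in 2i ESCs in all but 1 case. Those called in 2i were higher in 6 of 7 cases, and no binding was measured here. Of 13 listed, 12 were on the array and 11 were tested. In 2i against RFP-negative serum ESCs 6 were higher, 1 lower and 4 not called, where 19.7% of all genes were higher and 20% lower, with a median of 0.70 log2 beside 0.01 over all genes. The 6 include Tcl1, whose call is taken up below. Nanog rose by 0.50 log2, Tbx3 by 1.42 log2, Fbxo15 by 1.30 log2, Lefty1 by 0.75 log2 and Prdm14, detected on 1 of 2 serum arrays, by 1.65 log2. Esrrb (0.23 log2, adjusted p 0.84) and Pou5f1 (−0.10 log2, adjusted p 0.55) were not called. Of the rest, Tcl1 (1.59 log2) and Sall4 (−0.39 log2) were called, Tcl1 losing its call without any of the 4 arrays compared and Sall4 without any of them but 2i array 2. None of the 11 was called between the serum gates.

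Of these 11 genes, 10 were lower in EpiLCs than in 2i ESCs, none was higher and 1 was not called, with a median of −2.77 log2, in which undetected genes enter at their measured signals. Esrrb fell by 5.93 log2 (SE 0.73, adjusted p 7.9e-05), Tbx3, which was detected on 1 of 2 EpiLC arrays, by a fitted 6.74 log2 (SE 0.18, adjusted p 2.4e-09) and Zfp42 by 4.55 log2 (SE 0.51, adjusted p 3.9e-05). Tcl1 was at least 88.7-fold, Nr5a2 at least 43.8-fold and Prdm14 at least 2.76-fold lower, all undetected in EpiLCs. Nanog was at −0.33 log2, with a call that ended without 2i array 2 or EpiLC array 1, and Pou5f1 at −0.48 log2, with one that ended without EpiLC array 1. In EpiSCs against 2i ESCs 1 was higher (Lefty1, 0.77 log2), 7 were lower and 3 were not called (median −3.30 log2). Between EpiSCs and EpiLCs 3 were higher, 1 lower and 7 not called (median 0.38 beside 0 log2), Nanog losing its call without EpiLC array 1. There Fbxo15 fell by 1.54 log2, in the direction of Klf4 and Klf5, and Lefty1 rose by 1.79 log2 and Pou5f1 by 0.61 log2, against it. In MEFs against single-reporter ESCs all 11 tested were lower (median −6.13 log2), where 78.3% of all genes were called and 38.7% were lower.

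The LIF and STAT3 route, the known input to Klf4, was described through the RNA of 10 of 10 listed genes. Its activity was not measured, and its part in the Klf4 levels was not tested. In 2i against RFP-negative serum ESCs 3 were higher, 3 lower and 4 not called (median −0.02 beside 0.01 log2). Socs3, the feedback inhibitor and a direct STAT3 target, rose by 0.59 log2 (SE 0.09, adjusted p 0.00062) beside Klf4, and 5 of the other calls, those of Il6st, Bcl3, Lifr, Stat3 and Pim3, each ended with any 1 of at least 3 arrays left out. In EpiLCs against 2i ESCs 2 were higher, 5 lower and 3 not called (median −0.79 beside −0.01 log2), the call of Jak1 ending without 2i array 1 or EpiLC array 1. The receptor genes Lifr and Il6st fell by 1.59 and 1.33 log2, Stat3 by 2.04 log2 (SE 0.11, adjusted p 1.9e-07) and the targets Socs3 and Bcl3 by 1.62 and 4.13 log2, Bcl3 being detected on 1 of 2 EpiLC arrays, while the kinase gene Jak2 rose by 2.29 log2 (SE 0.26, adjusted p 4.6e-05). In EpiSCs Stat3 was not lower than in 2i ESCs (−0.14 log2, adjusted p 0.27) and was 1.90 log2 higher than in EpiLCs (adjusted p 6.4e-07), whereas Socs3 fell further by 0.97 log2 (adjusted p 1.6e-05) alongside Klf4. In MEFs against single-reporter ESCs 4 were higher and 6 lower, with a Pim1 call that ended without any 1 of 11 arrays. Il6st rose by 2.12 log2 and Stat3 by 1.53 log2 there, and Socs3 fell by 2.85 log2.

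The ERK5 route feeds Klf2 in endothelial cells through MEF2 factors, and 6 of its 7 listed genes were tested. None was called in 2i (median 0.06 beside 0.01 log2). In EpiLCs against 2i ESCs 3 were higher and none lower, beside 55.1% of all genes called and 27.5% higher. Map3k3 rose by 0.53 log2, Map2k5 by 0.51 log2 and Mef2a by 0.85 log2 (adjusted p 0.0047, 0.0012 and 0.0016). In single-reporter against double-reporter ESCs, 4 of 6 were higher and none lower, a share called near the 63.1% over all genes, of which 31.3% were higher. They were Map2k5 (0.52 log2), Mef2a (1.19 log2), Map3k3 and Mef2c. The Map3k3 call ended without any 1 of 7 arrays, and that of Mef2c without single-reporter array 2. Of 6 endothelial and blood markers, listed because Klf2 is a flow-induced factor of endothelium, Cdh5, Tie1, Ptprc and Spi1 were undetected in every group. Pecam1, an adhesion molecule of endothelium that mouse ESCs also express, was detected on both arrays of the 4 ESC groups, with group means of 8.75 to 9.39 log2, and was at 5.30 in EpiLCs (detected on 1 of 2 arrays), 5.65 in EpiSCs and 5.01 in MEFs, undetected in the last 2, so it ran with Klf2 between ESCs and other cells. Kdr was detected on at least 1 array of every group but MEFs, with group means of 5.35 to 6.01 log2. The part of such cells in the Klf2 values was not tested.

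Ubiquitin ligase genes that act on Krüppel-like factors were tested in 6 of 6 cases, and these arrays measured no protein. In EpiLCs against 2i ESCs 3 were higher and 3 not called, a share near the 55.1% of all genes called. Wwp1, a ligase known to act on Klf2 and Klf5, rose by 0.80 log2 (SE 0.07, adjusted p 1e-05), and Fbxo32, reported to act on Klf4, was at least 7.46-fold higher, being undetected in 2i ESCs. Btrc was at 0.29 log2, with a call that ended without 2i array 2 or EpiLC array 1. Fbxo32 was at least 1.9-fold lower in 2i than in RFP-negative serum ESCs. In EpiSCs against EpiLCs it was at −0.47 log2, the direction of Klf4, with a call that ended without EpiLC array 2 or EpiSC array 1. Its highest group mean was 10.70 in MEFs, where Klf4 was above both primed groups. Fbxw7, which acts on Klf2 and Klf5, was at −0.06 log2 in EpiLCs against 2i ESCs and not called.

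Immediate early genes, which like Klf2, Klf4 and their relatives Klf6 and Klf10 respond to acute stimuli, did not run one way with the members. In 2i against RFP-negative serum ESCs 5 of 8 were higher, 1 lower and 2 not called (median 0.76 beside 0.01 log2), where 19.7% of all genes were higher, among them Fos (2.39 log2), Ier2 (3.03 log2, detected on 1 of 2 serum arrays) and Egr1 (0.65 log2). In EpiLCs against RFP-positive serum ESCs 7 of 8 were higher and none lower (median 2.26 beside 0.02 log2), where 28.3% of all genes were higher. The call of Junb (0.28 log2) among them ended without any 1 of the 12 arrays outside EpiSCs. Fos rose by 3.20 log2, Jun by 2.88 log2 and Atf3 by 2.94 log2. EpiLCs against 2i ESCs gave 5 higher, 2 lower and 1 not called (median 0.54 beside −0.01 log2). Atf3 rose there by 4.39 log2, Egr1 fell by 0.52 log2, and Ier2 was at −0.76 log2 with a call that ended without any of the 4 arrays compared.

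Klf4 is 1 of the 4 classical reprogramming factors, and Klf2 and Klf5 can stand in for it. Of the other factors, Myc was at least 2.35-fold lower in 2i than in RFP-negative serum ESCs, being undetected in 2i, opposite to Klf4, while Sox2 (0.23 log2, adjusted p 0.26) and Pou5f1 were not called. Sox2 in EpiLCs against 2i ESCs fell by 3.30 log2 (SE 0.15, adjusted p 8.5e-08) with the members. Myc, undetected in 2i ESCs, rose there by a fitted 1.06 log2, against them, and Pou5f1 was at −0.48 log2, as given above. Of 6 genes that Krüppel-like factors regulate in differentiated cells, 5 were tested. Cdkn1a, the cell cycle inhibitor that Klf4 activates, rose by 1.95 log2 in 2i (SE 0.08, adjusted p 1.7e-07), fell by 0.89 log2 in EpiLCs against 2i ESCs (adjusted p 6.1e-06) and rose by 1.20 log2 in MEFs against single-reporter ESCs (adjusted p 2.6e-07). It rose where Klf4 fell in EpiLCs against RFP-positive serum ESCs (0.96 log2, adjusted p 4.6e-06) and in EpiSCs against EpiLCs (0.97 log2, adjusted p 6.3e-06), and in EpiSCs against 2i ESCs it was at 0.07 log2 (adjusted p 0.43). Krt19, an epithelial keratin, was undetected in 2i ESCs and at least 5.42-fold higher in EpiLCs. In MEFs against single-reporter ESCs 4 of 5 were higher, among them Tagln (3.03 log2), the smooth muscle gene that Klf4 represses, and Thbd (3.15 log2), whose call ended without any of the 4 arrays compared.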

How the data were processed

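RNA was hybridised to Illumina mouse beadchips after biotin labelling, per the labels' protocols. The authors deposited a table of non-normalized signal intensities for 25697 probes on 14 arrays with a detection p-value for each, per the file headers. The submitters' processing notes name GenomeStudio 2011.1, and its settings are not given in the sources used here. A deposited table of log2 values equalled the quantile-normalized log2 scanner signals without background correction (100% within 0.01 log2, column median 7.5289) and served as an alternative. Gene names came from the platform's probe annotation, updated to current symbols: 23978 probes had 1 symbol, 0 several and 1719 none, and 23971 named probes matched.

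Signals were background-corrected, quantile-normalized and logged with neqc (offset 16) in limma 3.58.1 under R 4.3.3. Probes counted as detected in a group where both its arrays had a detection p-value under 0.05. Of a gene's probes detected in 1 group or more, the brightest over all arrays stood for the gene, which left 10481 genes. Group means were fitted over all 14 arrays (lmFit, eBayes, 7 residual and 2.5 prior degrees of freedom), and the 14420 detected probes were also fitted separately. The number of arrays limits the precision: over genes, the median 95% interval for 1 group minus another reached 0.29 log2 to either side. On each array 11916 to 13815 probes (46.4% to 53.8%) were detected. Where a gene was undetected on every array of one side, the fold is a bound ("at least"), set against the higher of its own signal and the lowest detected signal on each array. The fit was checked on simulated data. Alternatives were the background correction, normalization, filter, probe choice, eBayes settings, a replicate block, the arrays fitted and each array left out. Genes named are the members, the 5 genes most like each, and genes of fixed lists named by role. Members and lists were chosen with earlier results of these data known, and no list was tested as a set. Slide and scan were not used here.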

Additional observations from a re-analysis of the deposited data

How the results depend on the processing

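Of 274 values of the members in the 8 comparisons under other settings, 263 kept their direction and side of the threshold, as did 332 of 336 with 1 array left out, and the exceptions in these 8 were all Klf4. Among the other pairs of groups, Klf2 calls in 2i against single-reporter ESCs and in EpiLCs against MEFs also ended with 1 array left out. So did the main-probe Klf4 calls of both double-reporter serum groups against single-reporter ESCs. Where they ended, the Klf4 change was 0.67 to 0.77 log2 for RFP-positive and 0.69 to 0.75 log2 for RFP-negative serum ESCs. Against double-reporter serum ESCs, the Klf4 change in single-reporter ESCs of −0.73 log2 became 0.98 and 1.12 log2 on the other probes. It became 0.46 log2 (adjusted p 0.014) as the mean of the probes, and ran from −0.78 to −0.68 log2 with 1 array left out. In MEFs against single-reporter ESCs the Klf4 change of 0.39 log2 became −1.90 and −2.01 log2 on the other probes and −1.17 log2 as the mean of the probes. It was called at 0.37 log2 without background correction and on the authors' values (adjusted p 0.035 for each), and at 0.39 log2 with only those arrays (adjusted p 0.0075) or without both EpiSC arrays, a setting chosen after seeing the data (adjusted p 0.00032), and ran from 0.34 to 0.44 log2 with 1 array left out. In 2i it ran from 0.86 to 0.99 log2, and between the serum gates it was 0.02 log2 on ILMN_1241903. The cause was not tested.

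The 13 genes called between the serum gates became 46 without both EpiSC arrays, 0 by limma with only those arrays in the fit (1367 at an unadjusted p under 0.05), and 1 to 46 with 1 array left out. In EpiSCs against EpiLCs 5909 genes were called, and 3403 with only those arrays. Of 297 calls of list genes, 63 ended with at least 1 array left out. Same-numbered arrays shared little deviation: their deviations correlated at −0.03 to 0.09, above 0.1 in 0 of 21 pairs of groups. These values cannot show whether same-numbered samples came from 1 culture or sort. The replicate block changed no member's call, with Klf4 at 0.93 log2 in 2i.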
